A study of Bos taurus with 8 samples.

Results

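The genes described here are the WNT ligands, their receptors and the regulators of the pathway that the array carried: 48 genes of the 15229 with a symbol on the array, measured by 56 of its 43794 expression probes. They were taken by symbol alone: the WNT ligands, the Frizzled receptors (FZD), the Dickkopf (DKK) and secreted Frizzled-related (SFRP) antagonists and the Dishevelled proteins (DVL), to which LRP5, LRP6, AXIN1, AXIN2, APC, GSK3A, LEF1, TCF7, TCF7L1, TCF7L2 and CSNK2A2 were added by name. No measured value entered the choice. FZD6, WNT4 and WNT7B, which belong to the same families, were not among the gene symbols of the array. GSK3B was not analysed here.

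WNT ligands are secreted proteins to which PORCN attaches a fatty acid, palmitoleate, before they leave the cell. In the canonical branch a ligand joins a Frizzled receptor to LRP5 or LRP6, Dishevelled is recruited, and the destruction complex built on AXIN and APC stops marking beta-catenin for breakdown, so that beta-catenin reaches the TCF/LEF factors on DNA. DKK proteins act on the LRP co-receptors and SFRP proteins bind the ligands. In the bovine blastocyst this pathway has been studied for its part in pluripotency and in the allocation of cells between trophectoderm and inner cell mass.

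The series asked how serum lipids in the culture medium act on the transcriptome of the blastocyst. Holstein embryos were matured, fertilized and cultured in vitro from ovaries collected at slaughter. All embryos grew under control conditions to the stage of 8 to 16 cells on day 3. In the lipid group (lipid-blast), lipids obtained from serum were added from then until the blastocyst stage on day 7, and the control group (ctl-lipid-blast) received no treatment. Blastocysts were collected 170 hours after fertilization. Sigma is named as the source of the bovine serum albumin, a label that was attached to the Cy5 channel of each array and so to pools of both groups. Each of the 4 control and 4 lipid samples was a pool of 10 whole blastocysts, which mixes trophectoderm with inner cell mass, and its RNA was amplified before labelling. Each control pool was paired with a lipid pool on 2 two-colour arrays with exchanged dyes, 1 on slide 87 and 1 on slide 88, which gave 8 arrays and n = 4 pool pairs. Values below are log2 ratios of lipid over control, and the mean ± SE is over the 4 pool pairs unless stated otherwise. Levels are normalised log2 intensities of single pools, which can be compared between pools for 1 probe but not between probes.

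The pools carried the RNA of the labelled embryo. The marker lists were read by signal above background in either channel on at least 4 of the 8 arrays. Of the genes on the array, 12 of 13 for trophectoderm, 10 of 10 for inner cell mass and 8 of 8 for primitive endoderm passed. Control signal was above background on 0 arrays for FOXA2, 1 for SOX17, and 2 each for SALL4 and CDX2. Pool pair 2 stood apart in genes of stromal and cumulus cells, the cells that surround an oocyte. Its lipid pool was above its control pool in 11 of 11 measured stromal genes, with a median log2 ratio of 1.02 against -0.29 to 0.16 in the other pool pairs, and 6 of the 11 were at least 2-fold higher. In the cumulus and granulosa list 13 of 16 genes were above 0 in that pool pair, with a median of 0.71 against -0.03 to 0.05, and LHCGR, TNFAIP6 and FOXL2 did not exceed the limit in either channel of any array. The summed stromal level, in log2, was 15.4 to 15.7 in the control pools and 15.4 to 16.3 in the lipid pools, and the summed cumulus level was 13.0 to 14.1 and 13.1 to 15.4, with both maxima of the lipid group in pool pair 2. The lists share LUM, VIM and COL1A2 and are not separate evidence. Without these 3 genes 10 of 13 cumulus and granulosa genes were above 0 in pool pair 2, with a median of 0.43 against -0.03 to 0.00 in the others, while CYP19A1, NR5A1 and HAS2 were at -0.24, -0.19 and -0.18 there. Markers of the embryo differed in pool pair 2 as well, in both directions. There GATA4 was at 1.37 and IFNT at 0.94, while KRT18 was at -1.05 and KRT19 at -0.83. Of the primitive endoderm genes 4 of 8 were above 0 in that pair, and of the trophectoderm genes 6 of 12. The part of stromal and cumulus cells in the WNT values was not tested. Where leaving out pool pair 2 moved the mean of a member given in each pool pair by over 1.5 times, the mean without it is printed too.

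Many members were near the background of the array. A spot counted as above background where its intensity lay over 2 SD above the average of the negative controls, and a probe was tested where either channel did so on at least 4 of the 8 arrays. By this rule 32 of the 48 members were tested, or 66.7%, against 76.6% of all genes with a symbol. In the control channel 19 members (39.6%) exceeded the limit on at least 4 arrays, against 60.9% of all genes. In the lipid channel 25 members (52.1%) did, against 70.2%. Array 1 of slide 87 had high limits, and 6 of the 48 members passed there, against 23 to 38 on the other arrays.

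LRP6, DVL2, APC, AXIN1 and CSNK2A2 were above the limit in both channels of all 8 arrays. They are a co-receptor, a Dishevelled protein, the scaffolds of the destruction complex and a kinase, and no secreted ligand or antagonist was among them. WNT6, WNT5B and WNT8A were the ligands that exceeded it on the most arrays, on 7, 7 and 6 of 8 in the control channel. WNT1, WNT10A and WNT5A did not exceed it in either channel of any array. WNT2, WNT3, WNT10B, FZD9, DKK4, SFRP4 and DVL1 did so on 1 to 3 arrays in the lipid channel and on none in the control channel, so they were not well above background in control pools and get no fold. WNT3A, FZD5, SFRP2, DVL3, GSK3A and LEF1 were seen in both channels, on 1 to 3 arrays, and fell short of the filter.

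**Figure D1:**
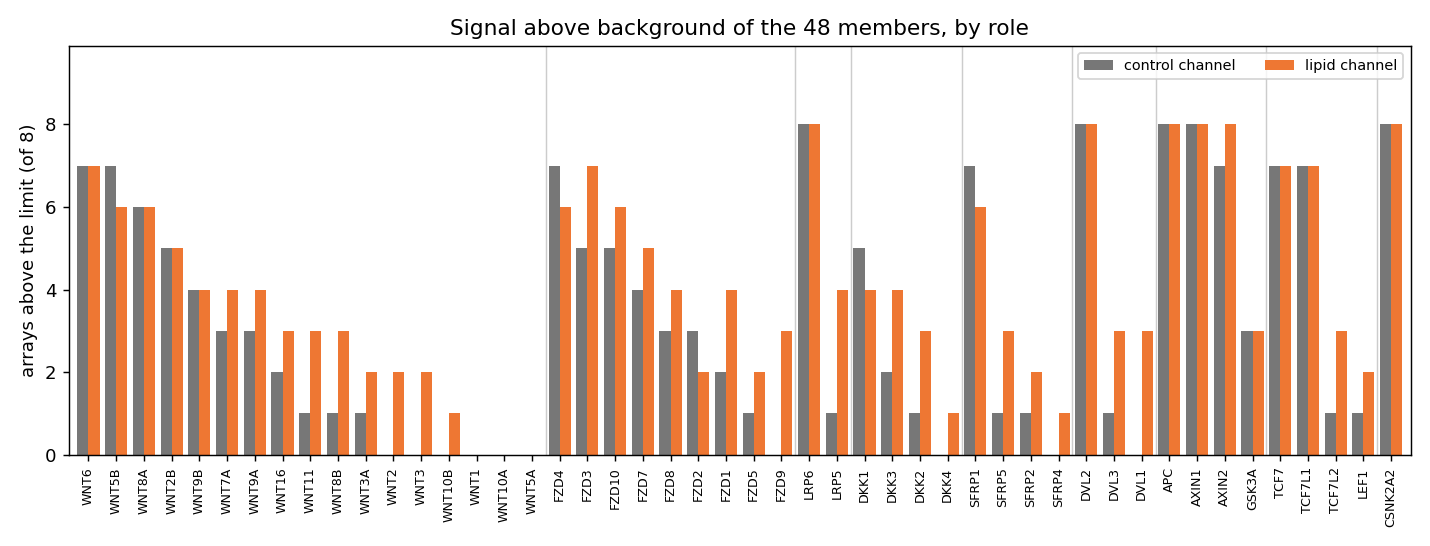
Signal above background of the 48 members, grouped by role from ligands (left) to CSNK2A2 (right). Bars give the number of arrays, of 8, on which the control channel (grey) or the lipid channel (orange) exceeded the limit set by the negative control spots. LRP6, DVL2, APC, AXIN1 and CSNK2A2 reach 8 in both channels, and WNT1, WNT10A and WNT5A are at 0 in both.

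No member passed the test after adjustment. In the limma fit across 28844 probes, 0 probes (0%) had an adjusted p under 0.05, and the adjusted p of the 32 tested members was 0.996 to 1. Without adjustment 3 of the 32 had a p under 0.05, which is 9.38% of them against 5.38% of all 11669 genes tested. FZD3 and AXIN2 were higher with lipids, where 2.74% of all genes were, and CSNK2A2 was lower, where 2.64% were. All 4 pool pairs had ratios of 1 sign for 4 members, FZD3, AXIN2, CSNK2A2 and WNT9B, or 12.5% against 11.1% of all genes. For no member did the levels of the 4 control pools and the 4 lipid pools lie apart, which was so for 0.686% of all genes. No member reached a mean ratio of 1.5-fold in either direction, against 0.797% of all genes. Each of these counts lies within 2 members of what the background share gives for 32 genes.

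The members as a list were centred on 0. Of the 32 tested, 16 had a mean above 0 and 16 below, against 49.9% of all genes above 0, and their median was -0.003 against -0.0002 for all genes. In single pool pairs 10, 18, 15 and 18 members were above 0, with medians of -0.10, 0.02, -0.01 and 0.05. The 95% confidence intervals are not adjusted for the number of probes. That of a member reached 0.216 to either side of its mean at the median, and 0.155 to 0.586 over the members. Smaller differences could not be told from 0 with 4 pool pairs, and larger ones, such as that of CSNK2A2, did not pass the adjusted test. The SD over the pool pairs was 0.161 at the median of the members and 0.229 at that of all genes.

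**Figure D2:**
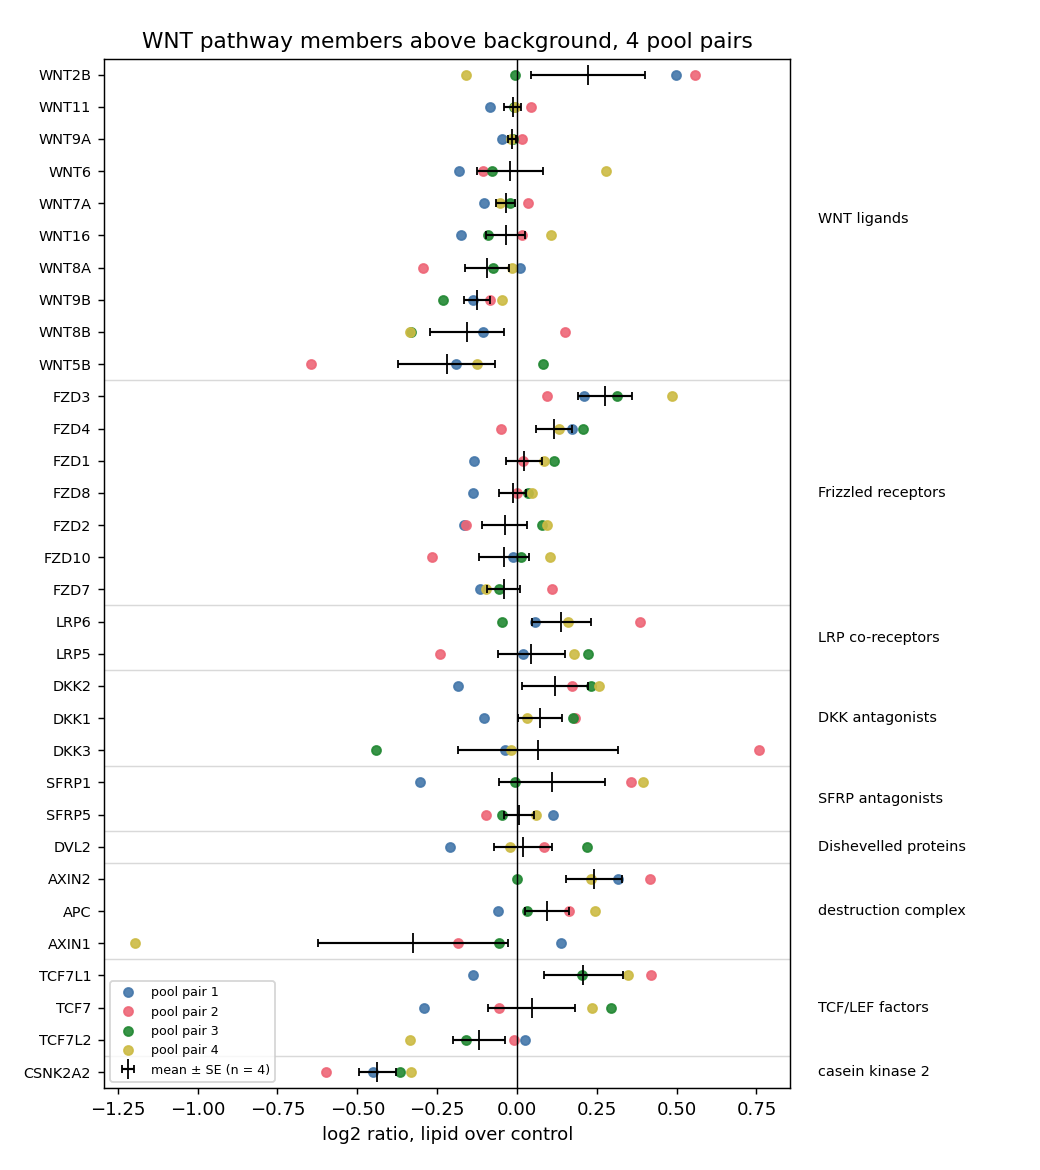
Log2 ratio of lipid over control for the 32 tested members, 1 row per gene, grouped by role. Coloured points are the 4 pool pairs, and the black tick and bar are the mean ± SE (n = 4). Most means lie within 0.25 of the line at 0, CSNK2A2 stands at -0.44 with 4 points on 1 side, and AXIN1 has 1 point at -1.20.

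Among the ligands, 1 of the 10 tested had a mean above 0 and 9 had one below, with a median of -0.04. In single pool pairs 2, 6, 1 and 2 of the 10 were above 0. None had an unadjusted p under 0.05 in limma, and 7 of the 17 ligands were not tested. Control signal exceeded the limit on at least 4 arrays for 5 of the 17, so several of these means rested on values near background. WNT5B, a ligand known mainly for signalling without beta-catenin, had levels of 8.31, 8.56, 8.01 and 7.76 in control pools 1 to 4 and 8.12, 7.92, 8.09 and 7.63 in the lipid pools. The groups overlapped, and the lipid pool was the lower one in 3 of 4 pairs. Its log2 ratio was -0.22 ± 0.15 (unadjusted p = 0.147), with -0.64 in pool pair 2, and -0.08 without that pool pair.

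WNT9B, a ligand of kidney and craniofacial development in the mouse, had control levels of 7.57, 7.19, 7.44 and 7.47 and lipid levels of 7.43, 7.11, 7.21 and 7.43. Each lipid pool was below its partner by a small step, while the groups overlapped. The 4 log2 ratios were -0.14, -0.08, -0.23 and -0.05, with a mean of -0.13 ± 0.04 (unadjusted p = 0.120), and signal was above the limit on 4 of 8 arrays in each channel. WNT2B, the ligand with a mean above 0, had control levels of 6.90, 7.02, 7.53 and 7.62 and lipid levels of 7.40, 7.58, 7.53 and 7.46. Its lipid pools were alike and its control pools were not: pairs 1 and 2 gave log2 ratios of 0.50 and 0.56, and pairs 3 and 4 gave -0.00 and -0.16. The mean was 0.22 ± 0.18 (unadjusted p = 0.190), and 0.11 without pool pair 2. Control signal of WNT2B exceeded the limit on 0, 1, 2 and 2 arrays of pairs 1 to 4. The ratios of pairs 1 and 2 thus rested on control values near background.

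WNT8B, a ligand of the developing forebrain, had control levels of 7.02, 6.85, 6.97 and 7.04 and lipid levels of 6.92, 7.00, 6.64 and 6.70. The log2 ratio was -0.16 ± 0.12 (unadjusted p = 0.198), and -0.26 without pool pair 2, and the groups overlapped. Control signal of WNT8B exceeded the limit on 1 of 8 arrays, so its ratio rested on values near background. The other 6 tested ligands had means between -0.09 and -0.01. WNT8A, a ligand of mesoderm and axis formation, was at -0.09 ± 0.07, WNT7A at -0.04 ± 0.03, WNT16 at -0.04 ± 0.06, WNT6 at -0.02 ± 0.10, WNT9A at -0.02 ± 0.01 and WNT11 at -0.01 ± 0.03. Each of these 6 means was below the half-width of its confidence interval. Control signal exceeded the limit on 3 arrays for WNT7A, 2 for WNT16, 3 for WNT9A and 1 for WNT11. Their ratios rested on values near background, so a small SE there does not show an unchanged gene. A second probe of WNT6, a ligand of epithelia, gave 0.03 ± 0.09.

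Of the Frizzled receptors, 7 of 9 were tested, 3 with a mean above 0 and 4 below, at a median of -0.01. FZD3, a receptor best known for axon guidance and planar cell polarity, had control levels of 7.63, 7.30, 7.54 and 7.20 and lipid levels of 7.84, 7.40, 7.85 and 7.69. The lipid pool was the higher one in each of the 4 pairs, and the groups overlapped. The log2 ratios were 0.21, 0.09, 0.31 and 0.48, with a mean of 0.28 ± 0.08, a ratio of 1.21, a 95% confidence interval of 0.06 to 0.50 and an unadjusted p of 0.0228 (adjusted p = 0.996).

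The single arrays of FZD3 did not share that sign. On the 4 arrays with the lipid pool in Cy5 its log2 ratio was 0.79, 0.59, 0.72 and 0.94. On the 4 arrays with the lipid pool in Cy3 it was -0.09, 0.03, -0.37 and -0.40. The dye difference, Cy5 over Cy3, was 0.48, the highest of the 32 members, and exceeded the treatment difference, which is what remained after the exchanged dyes were averaged. Each pool pair held 1 array in each dye orientation, so a dye difference common to both slides cancels in its mean.

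FZD4, the receptor of norrin and of retinal vessels, had control levels of 7.79, 8.29, 8.05 and 7.55 and lipid levels of 7.96, 8.24, 8.26 and 7.68. Its 4 log2 ratios were 0.17, -0.05, 0.21 and 0.13, with a mean of 0.12 ± 0.06 (unadjusted p = 0.176). The lipid pool was above its partner in 3 of 4 pairs, by less than the control pools differed among themselves. FZD1, FZD2, FZD7, FZD8 and FZD10 had means between -0.04 and 0.02. Of these, FZD7, the receptor most tied to embryonic stem cells in human and mouse, was at -0.04 ± 0.05. Control signal exceeded the limit on 2 arrays for FZD1 and on 3 each for FZD2 and FZD8, whose ratios thus rested on values near background.

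Both LRP co-receptors had means above 0. LRP6 had control levels of 11.58, 11.50, 11.73 and 11.20 and lipid levels of 11.63, 11.89, 11.68 and 11.36. The groups overlapped, and the mean log2 ratio was 0.14 ± 0.09 (unadjusted p = 0.188), with 0.39 in pool pair 2 and a mean of 0.06 without that pool pair. LRP5 had log2 ratios of 0.02, -0.24, 0.22 and 0.18, with a mean of 0.04 ± 0.10, and 0.14 without pool pair 2. Its control signal passed the limit on 1 array and its lipid signal on 4.

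The 5 tested antagonists all had means above 0, none with an unadjusted p under 0.05 in limma. Control signal exceeded the limit on 1 array for DKK2, 2 for DKK3 and 1 for SFRP5, and lipid signal on 3, 4 and 3. The ratios of these 3 genes thus rested on values near background. DKK1, DKK2 and DKK3 had means of 0.07 ± 0.07, 0.12 ± 0.10 and 0.07 ± 0.25. DKK3, the divergent Dickkopf, which is not an established LRP inhibitor, had control levels of 7.12, 7.38, 7.30 and 6.88 and lipid levels of 7.08, 8.14, 6.86 and 6.86. A single lipid pool, that of pair 2, stood above all others, with log2 ratios of 0.71 and 0.81 on its 2 arrays. Without pool pair 2 the mean of DKK3 was -0.17. DKK1, the antagonist most studied in bovine embryos, had log2 ratios of -0.10, 0.18, 0.18 and 0.03, a mean of 0.03 without pool pair 2, and signal above the limit on 5 control and 4 lipid arrays.

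SFRP1, which binds WNT ligands outside the cell, had control levels of 7.42, 7.72, 7.91 and 7.90 and lipid levels of 7.11, 8.08, 7.90 and 8.29. Its log2 ratios of -0.30, 0.36, -0.01 and 0.39 had no common sign, and the mean was 0.11 ± 0.16, or 0.03 without pool pair 2. SFRP5, made in the anterior endoderm of the mouse embryo, was at 0.01 ± 0.05. SFRP2, a further member of the family that stromal cells secrete, was not tested and is named here after its values were seen. Its control levels were 6.76, 7.24, 7.28 and 6.99 and its lipid levels 6.91, 9.35, 6.97 and 6.98. The lipid pool of pair 2 was above every other pool, with log2 ratios of 2.20 and 2.02 on its 2 arrays, and the other pool pairs gave 0.15, -0.32 and -0.02. Lipid signal of SFRP2 passed the limit on those 2 arrays alone, and its mean was -0.06 without pool pair 2.

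**Figure D3:**
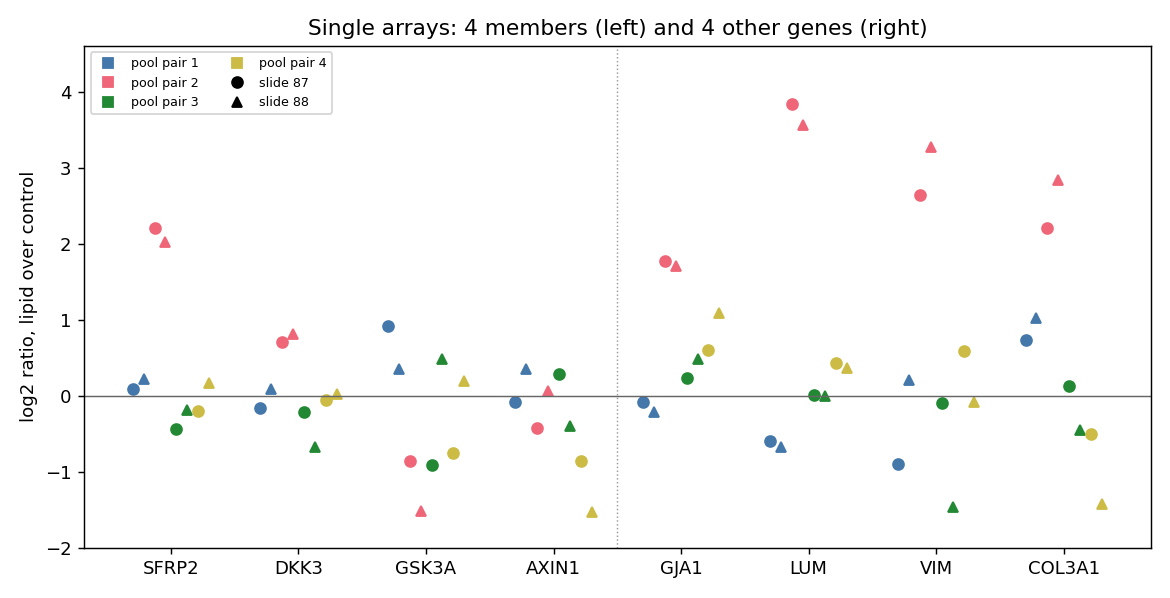
Log2 ratio of lipid over control on each of the 8 arrays for the members SFRP2, DKK3, GSK3A and AXIN1 (left) and for GJA1, LUM, VIM and COL3A1 (right). All have a wide spread between the pool pairs. Colours mark the pool pair, circles slide 87 and triangles slide 88. In pool pair 2, SFRP2 lies at 2.20 and 2.02 and DKK3 at 0.71 and 0.81, beside the stromal genes LUM, VIM and COL3A1.

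SFRP2 and DKK3 stood high in the same lipid pool as the stromal genes. In pool pair 2 the log2 ratio was 3.70 for LUM, 2.96 for VIM, 2.52 for COL3A1 and 1.83 for DCN, which encode matrix proteins and, for VIM, an intermediate filament of mesenchymal cells. Their part in the values of SFRP2 and DKK3 was not tested.

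Inside the cell, DVL2 was the Dishevelled protein that was tested. It relays the signal from Frizzled, and had control levels of 12.79, 12.95, 12.71 and 12.89 and lipid levels of 12.58, 13.03, 12.92 and 12.87. The lipid levels extended past the control levels at both ends, and the mean log2 ratio was 0.02 ± 0.09, or -0.00 without pool pair 2. AXIN2, the scaffold that is itself a target of beta-catenin, had control levels of 8.59, 8.41, 8.63 and 8.34 and lipid levels of 8.90, 8.82, 8.63 and 8.57. In pairs 1, 2 and 4 the lipid pool was above its partner, by 0.32, 0.42 and 0.23, and in pair 3 the pools were level, at 6.9e-05. The mean log2 ratio of AXIN2 was 0.24 ± 0.09, a ratio of 1.18, with a 95% confidence interval of 0.01 to 0.47 and an unadjusted p of 0.0413 (adjusted p = 0.996). It was above 0 on 7 of 8 arrays, at 0.21 on slide 87 and 0.27 on slide 88, and its dye difference was 0.07.

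AXIN1, the related scaffold, had control levels of 10.46, 9.99, 9.70 and 10.02 and lipid levels of 10.60, 9.81, 9.65 and 8.82. The lipid pool of pair 4 was below every other pool, with log2 ratios of -0.86 and -1.53 on its 2 arrays. The mean was -0.33 ± 0.30 (unadjusted p = 0.216), and -0.035 without pool pair 4. AXIN1 had the largest SD of the tested members, 0.60. APC, the other large scaffold of the complex, had log2 ratios of -0.06, 0.16, 0.03 and 0.24, with a mean of 0.09 ± 0.07, and its 2 further probes gave 0.19 ± 0.10 and 0.02 ± 0.13. GSK3A, a kinase that phosphorylates beta-catenin, was not tested and is named after its values were seen. Its control levels were 7.77, 8.76, 6.86 and 6.67 and its lipid levels 8.40, 7.57, 6.64 and 6.39. The log2 ratio was 0.63 in pair 1 and -1.19 in pair 2, so these pairs had opposite signs. Both channels were above the limit on both arrays of pair 2 and on 1 array of pair 1, and the mean of GSK3A was -0.26, or 0.04 without pool pair 2.

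TCF7L1, which mostly represses WNT targets in embryonic stem cells of the mouse, had control levels of 7.81, 7.74, 7.53 and 7.60 and lipid levels of 7.67, 8.16, 7.74 and 7.95. The lipid pool was the higher one in 3 of 4 pairs, and the mean log2 ratio was 0.21 ± 0.12 (unadjusted p = 0.116), or 0.14 without pool pair 2. TCF7L1 was above 0 on 5 of 8 arrays, and its dye difference of 0.38 exceeded its mean. Its other probes did not share 1 sign, with 0.16 ± 0.10 and -0.11 ± 0.09. TCF7, a factor known from T cells, had control levels of 8.96, 9.27, 9.14 and 9.01 and lipid levels of 8.67, 9.21, 9.44 and 9.24. The groups overlapped and the mean log2 ratio was 0.05 ± 0.14, or 0.08 without pool pair 2. TCF7L2, the factor of the intestinal crypt, had control levels of 7.16, 7.02, 7.18 and 7.18 and lipid levels of 7.19, 7.01, 7.02 and 6.84. Its mean log2 ratio was -0.12 ± 0.08 (unadjusted p = 0.222), or -0.05 without pool pair 4, with control signal above the limit on 1 array of 8. The other probes of TCF7L2 fell short of the filter and had the opposite sign, at 0.08 ± 0.11 and 0.04 ± 0.08. LEF1 was not tested.

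CSNK2A2 had the smallest p of the members. It encodes a catalytic subunit of casein kinase 2, which phosphorylates Dishevelled and beta-catenin among many other proteins. Control levels were 11.31, 12.17, 11.51 and 11.51 and lipid levels 10.86, 11.57, 11.14 and 11.17. Each lipid pool was below its control partner, while the groups overlapped because both pools of pair 2 were high. The log2 ratios were -0.45, -0.60, -0.37 and -0.33, with a mean of -0.44 ± 0.06, a ratio of 0.739, a 95% confidence interval of -0.63 to -0.25 and an unadjusted p of 0.00173 (adjusted p = 0.996). The ratio was below 0 on all 8 arrays, with means of -0.47 on slide 87 and -0.40 on slide 88. In pools of whole embryos, fewer cells of a type and less RNA per cell cannot be told apart.

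A second probe of CSNK2A2 was above the limit in both channels of all 8 arrays and gave -0.20, -0.52, -0.05 and 0.18, with a mean of -0.15 ± 0.15 (unadjusted p = 0.296). It was above 0 on 2 of 8 arrays, so the 2 probes shared their sign in 3 of 4 pool pairs and not their size. The other subunits of the kinase had values nearer to or above 0. CSNK2A1, the other catalytic subunit, was at -0.03 ± 0.18, and CSNK2B, the regulatory subunit, was at 0.24 ± 0.10 (unadjusted p = 0.0525) with a second probe at 0.22 ± 0.18.

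**Figure D4:**
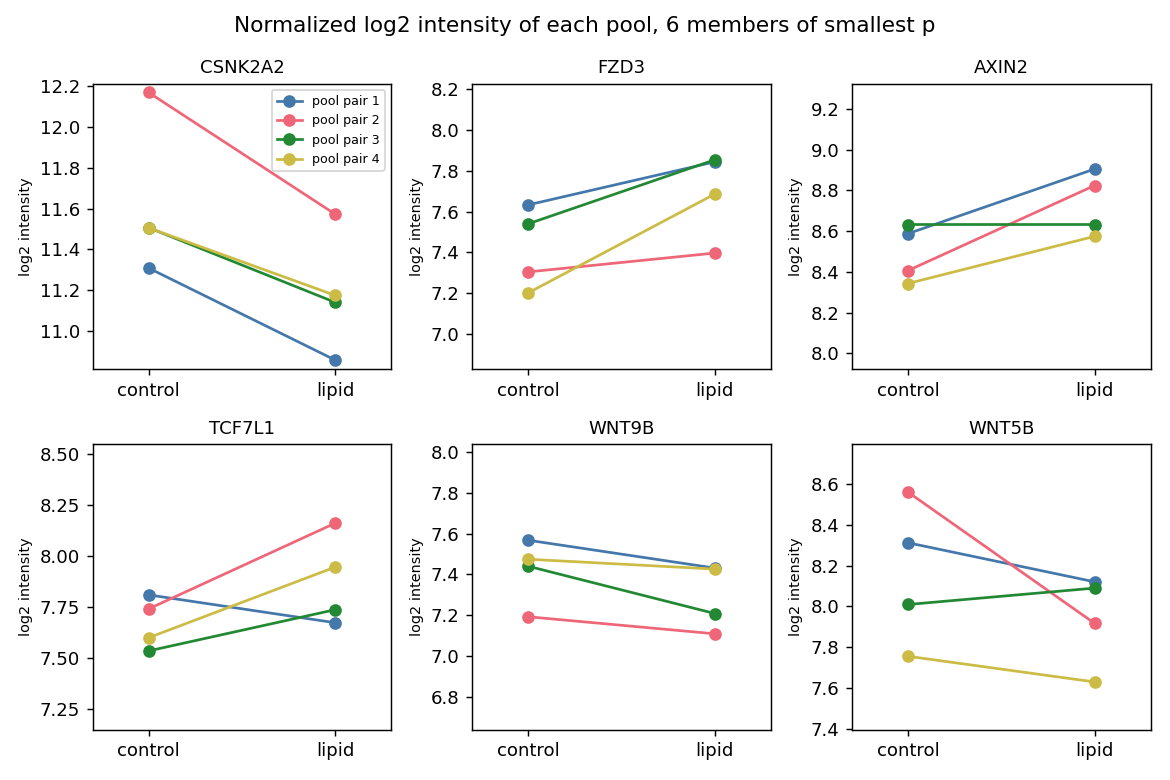
Normalised log2 intensity of each pool for the 6 members of smallest p, with control on the left and lipid on the right of each panel. A line joins the pools of 1 pair, and all panels span the same number of log2 units on different offsets. For CSNK2A2 all 4 lines slope down, and for FZD3 all 4 slope up, while the ranges of control and lipid pools overlap in all 6 panels.

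The slides and the single arrays set how far the members' ratios can be read. Over the 32 members the means of slide 87 and slide 88 had a correlation of 0.729 (0.663 without CSNK2A2), against 0.608 over all genes. The members are not independent, the slides share the pools, and the value is a description. The sign was the same on both slides for 21 members, or 65.6%, against 63.8% of all genes. For 22 members (68.8%, against 57.6% of all genes) the difference between the dyes was larger than that between lipid and control. The dye difference of the members ranged from -0.52 for WNT8B to 0.48 for FZD3. On the 2 arrays of 1 pool pair 16, 18, 11 and 15 of the 32 members had the same sign, or 50%, 56.3%, 34.4% and 46.9% against 58.6%, 63.7%, 52.6% and 53.6% of all genes. The correlation between these 2 arrays was -0.18, 0.27, -0.30 and 0.09 over the members and 0.25, 0.56, 0.19 and 0.23 over all genes. Both values were lower over the members than over all genes in each of the 4 pool pairs. The 2 arrays have exchanged dyes, so a probe's dye difference enters them with opposite sign and was not removed here. Its median size was 0.135 over the members and 0.113 over all genes. The lower values are thus no measure of how well the pools repeat, and the part of the dyes was not tested.

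**Figure D5:**
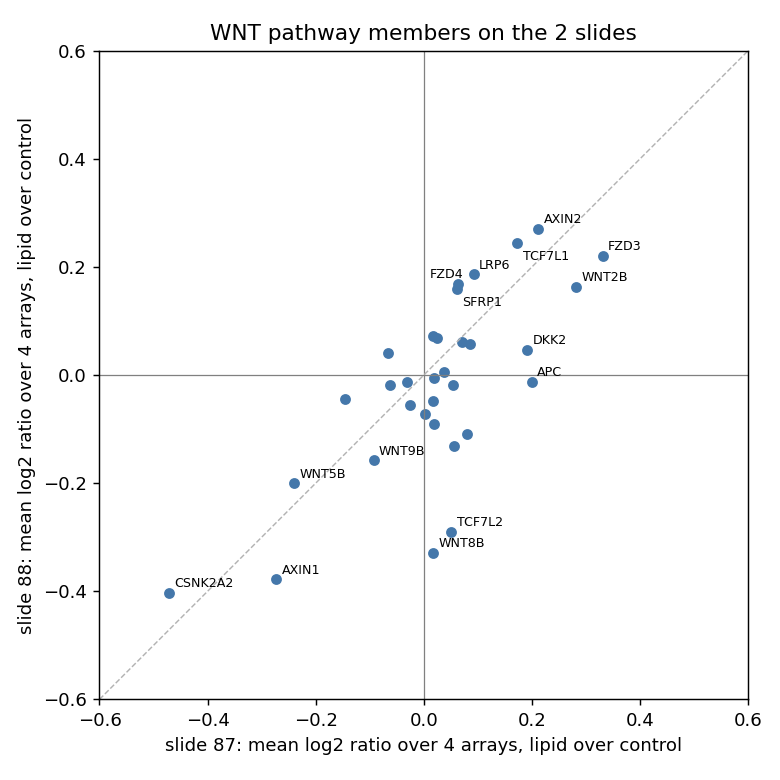
Mean log2 ratio of lipid over control on slide 87 (horizontal) against slide 88 (vertical), each over 4 arrays, for the 32 tested members. The dashed line marks equal values, and members farther from 0 are named. CSNK2A2, AXIN2 and FZD3 lie near the line, and TCF7L2 and WNT8B are near 0 on slide 87 and below -0.25 on slide 88.

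Further genes of the pathway came from a list of 61, of which 55 were on the array and 41 were tested. Of the 41, 27 had a mean above 0 and 14 below, with a median of 0.03. None passed the adjusted test in limma, and 5 were higher and 1 lower at an unadjusted p under 0.05, which is 12.2% higher against 2.74% of all genes and 14.6% in all against 5.38%. The 5 include WIF1 and KREMEN1, which exceeded the limit on 0 and 2 control arrays and so passed the filter through the lipid channel. Both shares and the count above 0 rest partly on these 2 genes. They are given as a description, not as a result about the list. RSPO1, RSPO2, VANGL2, CELSR1, CELSR2 and BCL9L did not exceed the limit in either channel of any array. VANGL1, a core protein of planar cell polarity, had log2 ratios of -0.37, -0.14, -0.21 and -0.44, with a mean of -0.29 ± 0.07 (unadjusted p = 0.0134), and was below 0 on all 8 arrays. DACT1, which binds Dishevelled, had -0.08, 0.88, 0.78 and 0.61, with a mean of 0.55 ± 0.22 (unadjusted p = 0.0238). DACT1 was above 0 on 6 of 8 arrays, and the 2 arrays of pool pair 4 gave -0.11 and 1.33. KREMEN1, a receptor of the Dickkopf proteins, had 0.67, 0.08, 0.24 and 0.42, with a mean of 0.35 ± 0.13 (unadjusted p = 0.0244) and control signal above the limit on 2 arrays. Its ratio thus rested on control values near background. KREMEN1 was above 0 on 5 of 8 arrays, and its dye difference of -0.37 was larger in size than its mean.

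RYK, a co-receptor with a WNT-binding domain, was above 0 on all 8 arrays, with pool pairs at 0.09, 0.18, 0.31 and 0.21 and a mean of 0.20 ± 0.05 (unadjusted p = 0.0320). CTNNB1, which encodes beta-catenin, had 0.06, 0.31, 0.21 and 0.72, with a mean of 0.33 ± 0.14 (unadjusted p = 0.0430). CTNNB1 was above 0 on 6 of 8 arrays, and its dye difference was 0.32. WIF1, a secreted inhibitor of WNT ligands, was not well above background in control pools and had lipid signal above the limit on 5 arrays, so it gets no fold and no p. It stays in the counts of the list, which come from the fit. The adjusted p of the other 5 genes was 0.996.

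Of a list of 30 target genes of beta-catenin, 26 were on the array and 19 were tested, 5 of the 26 being members described above. Of the 19, 12 had a mean above 0 and 7 below, at a median of 0.05, and none passed the adjusted test in limma, with 2 higher and 0 lower at an unadjusted p under 0.05, or 10.5% higher against 2.74% of all genes. These 2 were AXIN2 and PPARD, a nuclear receptor for fatty acids, which had log2 ratios of 0.11, 0.21, 0.17 and 0.43 and a mean of 0.23 ± 0.07 (unadjusted p = 0.0323). MYC, a regulator of growth, had 0.30, 0.47, -0.11 and 0.55, with a mean of 0.30 ± 0.15 (unadjusted p = 0.0585). GJA1, a connexin of gap junctions, had -0.15, 1.74, 0.36 and 0.85, with a mean of 0.70 ± 0.40 (unadjusted p = 0.0701), or 0.35 without pool pair 2. It was highest in pool pair 2, where stromal and cumulus genes were high too, and a dimmer second probe of GJA1 was at 0.03 ± 0.03. SP5, a direct target in many tissues, had -0.21, 0.09, -0.79 and -0.28, with a mean of -0.30 ± 0.18 (unadjusted p = 0.101). Its signal exceeded the limit on 3 control and 4 lipid arrays, and the 2 arrays of pool pair 3 gave -0.19 and -1.40. ID2, an inhibitor of differentiation found in trophectoderm, had 0.36, 0.40, -0.17 and 0.25, with a mean of 0.21 ± 0.13 (unadjusted p = 0.124). AXIN2 and SP5, both feedback targets of the pathway, therefore had means of opposite sign, and neither passed the adjusted test. The mean of SP5 rested on values near background, while AXIN2 exceeded the limit on 7 control and 8 lipid arrays.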

How the data were processed

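The deposited scanner files hold, per the file headers, the mean intensity of each spot and the median of its surroundings, for Cy3 at 532 nm and for Cy5 at 635 nm. Median Cy3 intensity per array was 230 to 324 and median Cy5 intensity 180 to 229. The number of arrays limits the precision. The authors also deposited a value table taken to be log2 ratios, for which the submitters' processing notes name limma. Its columns correlated with the log2 ratios computed here at 0.950 to 0.980, all as lipid over control, with slopes of 0.827 to 0.889 and medians of -0.026 to 0.019. How it was normalized, and to which log base, is not given in the sources used here. It was an alternative.

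Here intensities were corrected with normexp (offset 50) and normalized by loess within arrays, control spots at weight 0, in limma 3.58.1 (R 4.3.3), and every array was turned to lipid over control. Levels of single pools come from the same arrays after Aquantile scaling. Of 43794 probes, 28844 passed the filter on dim probes, based on 757 negative control spots per array. The design describes a dye swap of the same pools, and the labels do not say which arrays share them. Array numbers occur once per slide with opposite dyes. For each probe the mean of all arrays with the same dye orientation was subtracted first, which takes out the dye difference. Arrays of the same number then deviated together, with correlations of 0.61 to 0.77. Arrays of different numbers and opposite orientation had -0.32 to -0.03. Such deviations sum to 0 within an orientation, so these negative values are partly built in. Each pool pair is thus the mean of the 2 arrays with its number. Pool pairs were tested against 0 in a two-sided test (lmFit, eBayes) and p-values adjusted over all kept probes (Benjamini-Hochberg). No label says that pools derive from separate runs of fertilization, so p-values measure the spread between these pools.

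Symbols are those of the platform annotation, in which 21790 probes have 1 symbol and 0 have several. All 48 member symbols were found in the RefSeq gene table (ARS-UCD2.0). Each gene is given by its brightest probe. Values in every pool pair are given for the 12 tested members of smallest p, the 6 of largest SD and, from each of the 2 further lists, the 6 genes of smallest p, except WIF1, which was not above background in control pools. Members, lists and rules were chosen with earlier results of these data known. Fits were tested on simulated data. Alternatives changed the background correction, normalization, filter, value source, block, variance prior, slide, pool pairs and probe per gene.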

Additional observations from a re-analysis of the deposited data

Results flagged for a closer look

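The cumulus and granulosa marker list stood apart in 1 pool pair. Its median log2 ratio was 0.71 in pool pair 2, against -0.03 to 0.05 in the other 3, a gap larger than the criterion for an outlying value among 4. Of 53 sets of 4 values searched, this was the only one found, and chance would single out about 1 in 20. Without the 3 genes that the stromal list also holds, a choice made after seeing the data, the median in pool pair 2 was 0.43. In the same lipid pool the members SFRP2 and DKK3 had log2 ratios of 2.11 and 0.76. Neither of these was itself singled out.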

How the results depend on the processing

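No member passed the adjusted test under any alternative run. With no replicate block, the 8 arrays taken as independent, 7 probes of the whole array passed and 0 members did, and 2 members had an unadjusted p under 0.05 against 3 in the paired analysis. With the block as a random effect and a dye term, 4 did. That count was 1 with the filter that required signal on all 8 arrays and 1 with a trended, robust variance prior. It was 1 to 4 when single pool pairs were left out, with 1 after leaving out pool pair 4. The number of members above 0 was 16 of 32, 26 of 48 with no filter, 4 of 6 with signal on all 8 arrays and 12 to 20 when single pool pairs were left out. The median of the members was -0.003, and -0.016 to 0.029 with single pool pairs left out. That of the other pathway genes was 0.005 to 0.070, and that of the targets 0.037 to 0.078. On slide 87 alone TCF7L2 was at 0.051 and WNT8B at 0.018, the opposite sign to their means, and the cause was not tested. Of the 32 members, 7 changed sign on slide 87 alone, 4 on slide 88 alone and 4 to 6 when a pool pair was left out. A limit from the median and MAD of the negative controls, added after seeing the data, tested 42 members, 22 of them above 0. Signal over background left 7 of 17 ligands, 3 of 8 antagonists and 2 of 3 Dishevelled genes untested.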

Other observations

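Several ligand genes lie next to each other in the order of genes of the RefSeq table (ARS-UCD2.0): WNT9B and WNT3, WNT6 and WNT10A, WNT1 and WNT10B, and WNT3A and WNT9A. In 3 of these 4 pairs of neighbours 1 gene was tested, namely WNT9B, WNT6 and WNT9A, and its neighbour fell short of the filter. In the remaining pair, WNT1 and WNT10B, neither was tested.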
